A study of Mus musculus with 15 samples.

Results

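The 44 protein-coding genes whose symbols read Col, a number, a and a number in the GENCODE M21 annotation encode the collagen chains, out of 21755 protein-coding genes on chromosomes 1 to 19 and X. They were chosen by symbol alone and divided by the kind of protein into 11 fibrillar collagens, 8 basement membrane collagens (the type IV chains with Col15a1 and Col18a1) and 25 other collagens. Collagen chains wind into triple helices that are hydroxylated in the endoplasmic reticulum, secreted, trimmed and crosslinked outside the cell. Fibrillar chains build the cable-like fibrils that accumulate in liver scars, and type IV chains build the sheet of basement membranes under endothelium and bile ducts. In liver most fibrillar collagen is made by stellate cells and portal fibroblasts, while hepatocytes are a known source of type XVIII collagen.

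H3K4me3, a histone mark found at the start sites of transcribed genes, was measured in livers of 15 C57BL/6 (C57BL/6J in the study's methods) female mice from 6 litters, 3 mice on each of 5 diets. The diets were standard chow ad libitum (SD), a restricted ration of it (CR) and a high-fat diet ad libitum (HF). In the other diets, also ad libitum, the maize of the standard chow was replaced by powder of yellow (YD) or purple (RD) corn. The purple corn was rich in anthocyanins and the yellow corn free of them. The study's methods give SD, YD and RD the same energy content. YD and RD are together called the corn diets. Feeding began at 3 months of age and lasted 10 months by the study's text, and the labels state an age of 12 months. Chromatin came from formalin-fixed, paraffin-embedded liver by PAT-ChIP, with 1 library per mouse, and the mark at a gene is given as an enriched region (peak), called an island by the SICER2 program.

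A collagen was counted as marked in a library when an island lay within 1 kb of any of its annotated transcription start sites (TSSs). Each island has a width in bp, in steps of 200 bp, and a score, which was used only as a percentile, the share of islands of the same list with a lower score. The lists held 7825 to 33752 islands, and the reads recovered from their score steps numbered 5589269 to 15449854. Of 8 hepatocyte markers, 4 to 7 were marked in each library, with Apob, Ttr, Hnf4a and Cyp2e1 marked in all 15 and Serpina1e in none. Of 8 endothelial markers 0 to 8 were marked, of 8 stellate and fibroblast markers 0 to 5, of 8 Kupffer and macrophage markers 0 to 4 and of 5 cholangiocyte markers 0 to 2. Acta2, Csf1r, Vsig4, Marco, Timd4, Krt19, Epcam and Cftr were marked in no library. Whole liver was used, so fewer cells of a type and less H3K4me3 per cell cannot be told apart. The word PATChIP is in the file names of RD_1, HF_2, HF_3, CR_1 and CR_2, and ChIP in the other 10. All SD and YD libraries have the ChIP form. Values within a form are given for Col27a1 presence, Col18a1 width and score and Sec23a score on corn, and not for the other tests.

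The promoters that matter most for what follows are shown as RefSeq windows of 300 bp on GRCm38.p6 (mm10), from 250 bp before to 50 bp after a start site, written from 5′ to 3′ on the gene's strand. Col18a1 has both its windows printed because its island lay at the internal start in every library and at the upstream start in none. Col4a1 and Col27a1 were the most often marked type IV and fibrillar collagens, Col5a1 was marked in 2 libraries, and Col15a1 in none. Capitals mark CpG dinucleotides, the sequence element in which marked promoters are commonly rich.
Col18a1, internal start (chr10:77113656-77113955, minus strand): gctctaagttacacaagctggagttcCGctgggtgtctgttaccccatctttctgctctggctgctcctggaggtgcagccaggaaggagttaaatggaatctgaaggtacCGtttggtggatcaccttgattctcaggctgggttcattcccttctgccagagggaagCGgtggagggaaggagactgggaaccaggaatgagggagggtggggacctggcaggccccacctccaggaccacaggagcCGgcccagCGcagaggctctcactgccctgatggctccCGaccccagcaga
Col18a1, upstream start (chr10:77166481-77166780, minus strand): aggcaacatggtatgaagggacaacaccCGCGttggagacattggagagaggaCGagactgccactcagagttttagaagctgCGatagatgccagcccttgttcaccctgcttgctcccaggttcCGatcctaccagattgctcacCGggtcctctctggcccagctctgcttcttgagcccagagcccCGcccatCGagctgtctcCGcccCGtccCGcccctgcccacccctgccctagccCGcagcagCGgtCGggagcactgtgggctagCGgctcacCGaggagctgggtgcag
Col4a1 (chr8:11312777-11313076, minus strand): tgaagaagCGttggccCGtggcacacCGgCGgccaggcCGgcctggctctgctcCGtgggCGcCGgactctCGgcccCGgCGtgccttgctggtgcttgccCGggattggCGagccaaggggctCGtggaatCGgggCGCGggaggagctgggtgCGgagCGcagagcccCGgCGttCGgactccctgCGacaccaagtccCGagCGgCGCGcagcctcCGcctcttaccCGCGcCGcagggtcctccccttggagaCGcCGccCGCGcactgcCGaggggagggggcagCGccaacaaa
Col27a1 (chr4:63215162-63215461, plus strand): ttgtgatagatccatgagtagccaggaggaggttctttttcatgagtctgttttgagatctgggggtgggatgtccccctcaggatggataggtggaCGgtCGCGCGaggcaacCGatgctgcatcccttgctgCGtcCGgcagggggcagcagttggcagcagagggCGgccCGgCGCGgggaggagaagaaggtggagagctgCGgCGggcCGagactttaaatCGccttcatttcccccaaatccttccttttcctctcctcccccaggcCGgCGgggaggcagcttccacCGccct
Col5a1 (chr2:27886175-27886474, plus strand): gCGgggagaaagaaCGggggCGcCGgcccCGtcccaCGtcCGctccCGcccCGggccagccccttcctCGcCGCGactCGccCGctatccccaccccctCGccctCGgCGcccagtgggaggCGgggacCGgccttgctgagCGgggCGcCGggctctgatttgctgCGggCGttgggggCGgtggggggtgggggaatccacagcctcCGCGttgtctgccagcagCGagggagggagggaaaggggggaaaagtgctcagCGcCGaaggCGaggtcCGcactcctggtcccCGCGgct
Col15a1 (chr4:47207762-47208061, plus strand): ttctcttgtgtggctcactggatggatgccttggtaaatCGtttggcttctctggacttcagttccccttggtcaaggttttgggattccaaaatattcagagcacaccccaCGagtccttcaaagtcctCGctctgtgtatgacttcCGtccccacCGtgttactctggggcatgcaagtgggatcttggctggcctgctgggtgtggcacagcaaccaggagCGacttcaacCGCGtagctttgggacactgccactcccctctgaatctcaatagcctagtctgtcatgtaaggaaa

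The 2 Col18a1 windows held 6 CpGs at the internal start and 16 at the upstream start, and the observed number was 0.227 and 0.538 of that expected from the base composition. Islands overlapped the internal window in 8 libraries and the upstream window in 0, so the CpG-poorer window of this gene was the marked one. The Col4a1 window held 37 CpGs, with a ratio of 0.902, and was overlapped in 6 libraries. The Col27a1 window held 18 (ratio 0.639, 5 libraries), the Col5a1 window 34 (0.809, 1 library) and the Col15a1 window 8 (0.390, 0 libraries). A CpG-rich window thus came with islands in many libraries for Col4a1 and in few for Col5a1.

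Collagen promoters were marked less often than protein-coding genes as a whole. Of the 44 collagens 16 (36.4%) had an island in at least 1 library, against 13044 of 21755 protein-coding genes (59.96%). Counted over genes and libraries, 52 of 660 pairs (7.88%) were marked for collagens and 37.6% for all protein-coding genes. Only Col18a1 was marked in all 15 libraries (1 of 44, 2.27%), a state shared by 2059 protein-coding genes (9.46%). The genes marked in no library were Col1a1, Col2a1, Col5a3, Col11a1 and Col24a1 among the fibrillar collagens, Col4a3, Col4a4, Col4a6 and Col15a1 among the basement membrane collagens, and Col6a4, Col6a5, Col6a6, Col7a1, Col8a1, Col8a2, Col9a1, Col9a2, Col9a3, Col10a1, Col12a1, Col16a1, Col17a1, Col19a1, Col20a1, Col22a1, Col23a1, Col25a1 and Col28a1 among the others. These are 28 of 44 collagens (63.6%), against 8711 protein-coding genes (40.0%) marked in no library.

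**Figure D1:**
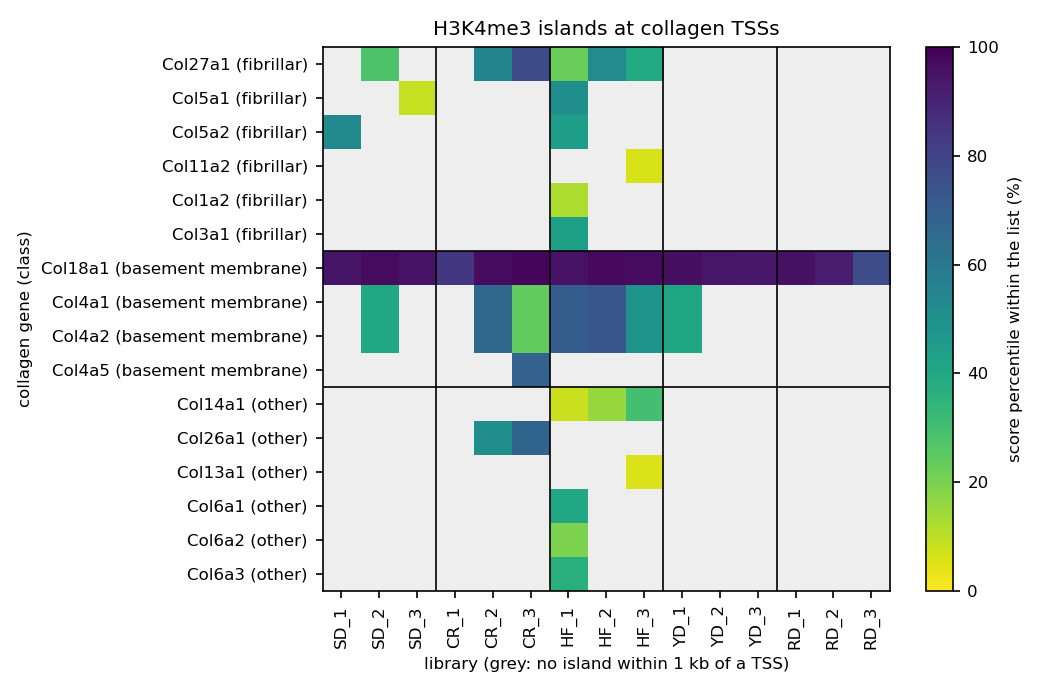
Islands at the TSSs of the 16 of 44 collagens marked in at least 1 library (rows, grouped by class) in the 15 libraries (columns, by diet). Colour gives the score percentile of the island within its list in percent, and grey means no island within 1 kb. Col18a1 is coloured in all 15 columns, and most marks of other collagens lie in the HF, CR and SD columns. The 28 collagens marked in no library are not drawn.

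The classes differed in how often they were marked. Basement membrane collagens were marked in 30 of 120 gene and library pairs (25%), fibrillar collagens in 13 of 165 (7.88%) and other collagens in 9 of 375 (2.4%). The share of basement membrane collagens exceeded that of fibrillar collagens in 14 libraries and that of other collagens in 15. The exception was HF_1, where 45.5% of fibrillar and 37.5% of basement membrane collagens were marked. In several libraries this order rested on Col18a1 alone. It was the only basement membrane collagen marked in SD_1 and SD_3, a share of 12.5% against 9.09% for fibrillar collagens. In CR_1, YD_2, YD_3 and the RD libraries it was the only collagen marked. Without Col18a1 the basement membrane share was 15 of 105 pairs (14.3%), and for the type IV chains alone it was 15 of 90 (16.7%). Apart from 1 mark at Col4a5, these 15 marks lay at Col4a1 and Col4a2, which shared their island in 7 libraries. Each such island was counted for both genes. With it counted once both shares would be lower and nearer the 7.88% of fibrillar collagens. The higher share of the basement membrane class thus rested on Col18a1 and this pair. Without HF_1 the fibrillar share was 5.19% and the share of other collagens 1.43%. With the same number of highest-scoring islands from each list they were 1.21% and 0.267%, and with islands at or above the median score 3.03% and 0.533%, while the basement membrane share was 20.8% and 18.3%. With the TSS inside the island the shares were 15.8% for basement membrane, 4.85% for fibrillar and 2.13% for other collagens. The genes are no replicates of a class, so these shares are given with no test.

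The HF mice had 12, 5 and 7 collagens marked, the CR mice 1, 5 and 6, and the SD mice 2, 4 and 2. The YD mice had 3, 1 and 1 and each RD mouse had 1. The HF mice overlapped the CR mice but not the SD, YD or RD mice, and the means with their standard deviations over 3 mice were 8 ± 3.61 (HF), 4 ± 2.65 (CR), 2.67 ± 1.15 (SD diet), 1.67 ± 1.15 (YD) and 1 ± 0 (RD). Without YD_1 the YD mean was 1. With the 7825 highest-scoring islands from each list the means were 3 (HF), 2.67 (CR), 1.67 (YD), 1 (SD diet) and 1 (RD), so the distance of HF from CR was smaller and YD lay above SD. Across the lists, the number of collagens marked rose with the share of all protein-coding genes marked, with Pearson's r of 0.798 and Spearman's rho of 0.815 (n = 15, a description over libraries that also differ in diet). With recovered reads r was 0.106 and rho 0.357, and with the number of islands r was 0.270 and rho 0.355. The protein-coding share was 54.6%, 47.6% and 51.5% in the HF libraries, 35.5%, 46.5% and 48.2% in those of CR, and 43.1%, 43.0% and 32.7% in those of SD. RD had 31.2%, 34.7% and 27.8%, and YD 24.3%, 26.5% and 17.5%. The collagen share, 2.27% to 27.3%, lay under the protein-coding share in all 15 libraries. The diets stood in the same order by either share, apart from YD and RD, which changed places.

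**Figure D2:**
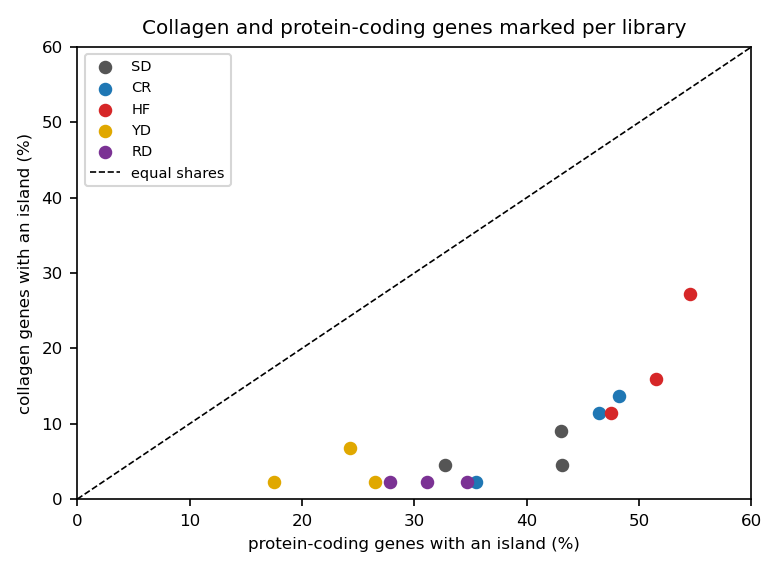
Share of the 44 collagens with an island (vertical axis, %) against the share of all protein-coding genes with an island (horizontal axis, %), 1 point per library, coloured by diet. The 6 corn libraries lie at the lower left, with 1 to 3 collagens marked, and HF_1 lies highest, at 27.3% of collagens and 54.6% of protein-coding genes.

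Endothelial, stellate and fibroblast, and Kupffer and macrophage markers were also most often marked on HF, as were all protein-coding genes (mean 51.2%). Cholangiocyte markers were marked in 20% of pairs on CR, 13.3% on HF, 6.67% on SD and 0% on YD and RD. HF_1, the library with most collagens marked, had 8 of 8 endothelial markers, 5 of 8 stellate and fibroblast markers and 4 of 8 Kupffer and macrophage markers marked. HF_2 and HF_3 had 4 and 5 endothelial and 2 and 3 stellate and fibroblast markers marked. The 6 corn libraries had 0 to 2 endothelial, 0 to 1 stellate and fibroblast and 0 to 1 Kupffer and macrophage markers marked. The SD and CR libraries had 0 to 6, 0 to 2 and 0 to 1, and the hepatocyte list had 7 of 8 in each HF library and 4 to 7 in the corn libraries. Within diets the lists did not always follow the collagens. SD_2, with 4 collagens marked, had 0 endothelial and 0 stellate and fibroblast markers marked, while SD_1, with 2 collagens, had 6 and 1. YD_1, with 3 collagens, had 0 markers marked of the endothelial, stellate and fibroblast, and Kupffer and macrophage lists. The part of these cell types in the collagen counts was not tested.

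Among fibrillar collagens, the type I and III chains were marked in HF_1 or not at all, the type V chains Col5a1 and Col5a2 in HF_1 and an SD library each, and Col27a1, a fibrillar chain best known from cartilage, was the most often marked. Col1a1, a chain of type I collagen, had no island within 1 kb in any library, and the nearest lay 44.0 kb from its TSSs. Col1a2, its partner chain, had an island of 1400 bp at percentile 12.4 in HF_1 alone, 299 bp from the nearest TSS. Col3a1, the type III chain, had an island of 2800 bp at percentile 43.2 in HF_1, where the start of the miRNA gene Gm47302 also lay within 1 kb. Of the type V chains, which regulate fibril width, Col5a1 was marked in SD_3 (1600 bp, percentile 8.96) and HF_1 (3400 bp, percentile 50.02), and Col5a2 in SD_1 (3200 bp, percentile 52.3) and HF_1 (2200 bp, percentile 43.9). The type I, III and V chains other than Col1a1 and Col5a3 thus shared their mark in HF_1, and no corn library marked any fibrillar collagen.

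Col27a1 was marked in SD_2 (1600 bp), CR_2 (1800 bp), CR_3 (2000 bp), HF_1 (800 bp), HF_2 (1000 bp) and HF_3 (2000 bp). The percentiles of these islands were 28.0, 54.9, 77.1, 22.5, 51.6 and 39.3. It was therefore marked in 6 of 9 mice on SD, CR or HF and in 0 of 6 on corn (two-sided exact permutation test over mice, p = 0.0278, adjusted p = 0.182 over 10985 genes by the Benjamini-Hochberg method). In this comparison 0.455% of the genes tested had an adjusted p under the threshold of 0.05, all 50 of them marked less often on corn, and 23.5% had an unadjusted p under it. The 50 calls became 0 in 13 of the 15 fits that left out 1 mouse, 148 without SD_3 and 112 without CR_1. Of the collagens 15 had islands in 1 to 14 libraries and could be tested, 0 passed after adjustment, and only Col27a1 passed before it (1 of 15). Of these 15, the 8 marked in 1 library and the 3 marked in 2 could not reach an unadjusted p under 0.05 with 6 mice against 9. The count of 1 of 15 therefore cannot be set against the share of all genes. Within the ChIP form of file name the share of mice with a Col27a1 island differed by -0.60 on corn and within the PATChIP form by -0.75 (exact permutation p = 0.167 and 0.4).

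The basement membrane collagens owed all but 1 of their 30 marks to 2 loci, Col18a1 and the pair Col4a1 and Col4a2. Col4a1 and Col4a2, the chains of the most widespread basement membrane, lie head to head on chromosome 8, with start sites 21 bp apart, and in each of 7 libraries 1 island served both genes. Its width was 1200 bp in SD_2, 2600 bp in CR_2 and 800 bp in CR_3. In HF_1, HF_2 and HF_3 it was 4400, 3400 and 2800 bp, and in YD_1 it was 2800 bp. The HF mice had the 2 widest islands at this pair, with YD_1 equal to the narrowest of HF and no RD mouse marked. The score percentiles were 40.3 in SD_2, 66.5 in CR_2, 24.04 in CR_3, 70.7, 73.3 and 48.8 in the HF mice and 40.9 in YD_1. The island held the Col4a1 start in 5 of the 7 libraries, and in SD_2 and CR_3 it lay 175 and 375 bp upstream of it. The pair was marked in 1 of 6 corn mice and 6 of 9 others (exact permutation p = 0.119, adjusted p = 0.309), and in 3 of 3 HF mice and 4 of 12 others (exact permutation p = 0.0769, adjusted p = 0.475). Neither difference passed the test. Col4a5, a chain of the kidney's filtration membrane, was marked in CR_3 alone (1000 bp, percentile 68.4). Col15a1, a close relative of Col18a1, had no island nearer than 3.52 kb to any of its TSSs.

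Col18a1, whose cleaved end is the angiogenesis inhibitor endostatin, carried the most constant mark of the family. The gene lies at chr10:77052178-77166548 on the minus strand and is known to use alternative promoters, of which the downstream serves hepatocytes. Its island lay within 1 kb of the starts of transcripts Col18a1-201 (77113946) and Col18a1-203 (77113705) in 15 of 15 libraries. The start of transcript Col18a1-202 (77166548), 52.6 kb upstream, had no island within 1 kb in any library and none nearer than 51.7 kb. In 8 libraries the island reached over a start, which was so in 3 of 3 HF, 2 of 3 CR, 2 of 3 SD and 1 of 3 YD mice and in no RD mouse. In the other 7 libraries it began 105 to 305 bp downstream of the Col18a1-203 start, within the transcribed region.

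**Figure D3:**
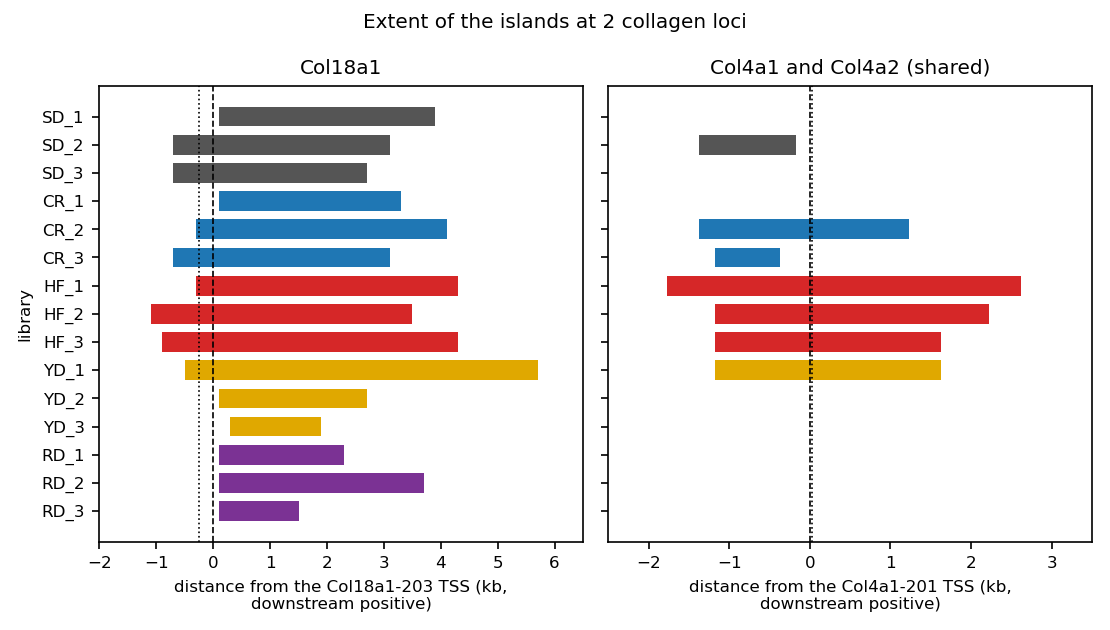
Extent of the islands at Col18a1 (left) and at the shared Col4a1 and Col4a2 promoter (right) in each library, as distance in kb from the start of Col18a1-203 or Col4a1-201 (dashed line), with the direction of transcription to the right, coloured by diet. Dotted lines mark the starts of Col18a1-201 and Col4a2-201. The HF and YD_1 bars cross the dashed line at both loci, and the RD bars at Col18a1 all begin to its right.

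The Col18a1 island measured 4600, 4600 and 5200 bp on HF, 3200, 4400 and 3800 bp on CR and 3800, 3800 and 3400 bp on SD. On YD it measured 6200, 2600 and 1600 bp, and on RD 2200, 3600 and 1400 bp. The HF mice lay above all SD, CR and RD mice, and YD_1 had the widest island of all while the other YD mice had narrow ones. The means with standard deviations (n = 3) were 4800 ± 346 bp on HF, 3800 ± 600 bp on CR, 3667 ± 231 bp on SD, 3467 ± 2419 bp on YD and 2400 ± 1114 bp on RD. On the log2 scale the mean was 11.33 ± 0.79 over the 6 corn mice and 11.98 ± 0.23 over the other 9, a difference of -0.66 (two-sided exact permutation test, p = 0.0332, adjusted p = 0.0845 over 2059 genes marked in all libraries). In that test 23.6% of genes passed after adjustment, all narrower on corn, 47.2% passed before it, and the median difference over all genes was -0.55. The 486 genes passing became 0 without YD_3, 23 without YD_2 and 851 without YD_1. The narrowing at Col18a1 was close to that of the median gene and did not pass. Within the ChIP form of file name it was -0.54 and within the PATChIP form -0.96 (exact permutation p = 0.222 and 0.2). Without YD_1 it was -0.91 (exact permutation adjusted p = 0.0198), which passed. HF against the other 12 mice gave +0.63 for Col18a1 (exact permutation p = 0.0835, adjusted p = 0.298), with 0% of genes passing after adjustment, 17% before it and a median difference of +0.50.

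By score the Col18a1 island ranked high within nearly every list. Its percentile was 95.03, 97.5 and 97.1 on HF, 83.6, 96.8 and 98.2 on CR and 94.4, 96.9 and 95.2 on SD. The YD mice had 96.1, 94.0 and 93.6 and the RD mice 95.3, 92.5 and 76.5. CR_1 and RD_3 stood below the rest, and the other 13 libraries lay between 92.5 and 98.2. In all 15 libraries the percentile was above the median of all marked protein-coding genes of that library, and in 14 libraries the width was. Corn against the other diets gave -3.65 percentile points (exact permutation p = 0.287, adjusted p = 0.401), in a test where 17.3% of genes passed after adjustment and 39.8% before it and the median difference was -9.62. Without CR_1 the difference was -5.07 points (exact permutation adjusted p = 0.0356), which passed, and without RD_3 it was -0.67 points. Within the ChIP form it was -5.42 points and within the PATChIP form +1.57 points (exact permutation p = 0.0635 and 1), so the direction did not hold in both. Leaving out 1 mouse took the 357 genes that passed to between 137, without YD_1, and 654, without RD_2. HF against the rest gave +3.78 points (exact permutation p = 0.292, adjusted p = 0.578), with 0% of genes passing after adjustment and 2.14% before it.

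**Figure D4:**
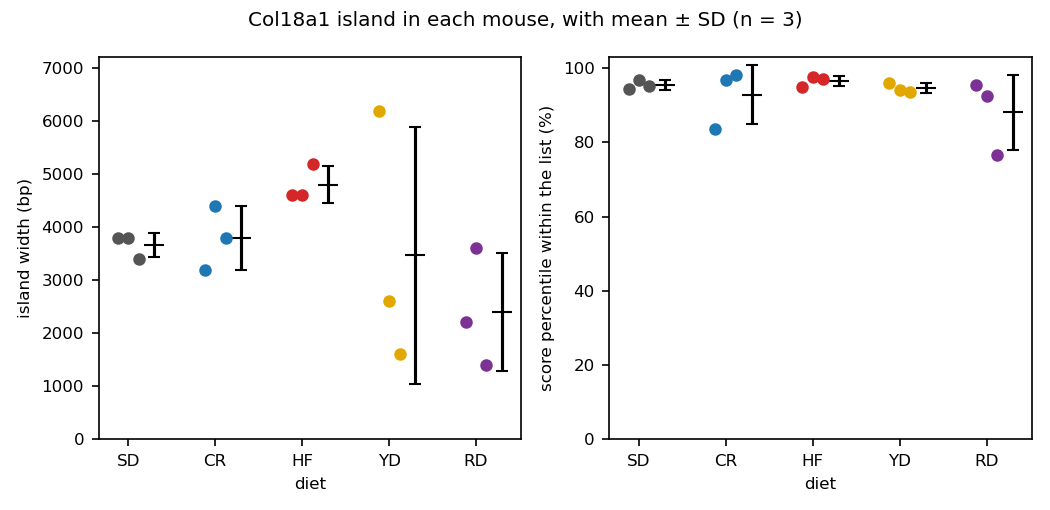
Width (bp) and score percentile (%) of the Col18a1 island in each mouse, by diet, with the mean and SD of the 3 mice. Widths run from 1400 bp in RD_3 to 6200 bp in YD_1, and percentiles lie above 92 except in CR_1 (83.6) and RD_3 (76.5).

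Marks at the remaining collagens ranked below the median marked gene. Of the 37 marks at collagens other than Col18a1, all 37 had a percentile below the median of the marked protein-coding genes of the same library, and 16 were wider than that median gene. Among the other collagens, Col14a1, which coats the surface of fibrils, was marked in HF_1, HF_2 and HF_3 and in no other library. Its islands were 1800, 1400 and 3000 bp wide, at percentiles 7.98, 15.3 and 30.01, and held its start in each. For HF against the other 12 mice (3 of 3 against 0 of 12) the two-sided exact permutation p was 0.0022, the smallest that the design allows, and the adjusted p was 0.260. In this comparison 0% of the genes tested passed after adjustment and 10.6% before it, and 2 of the 15 collagens tested passed before it, the second being Col27a1 (3 of 3 against 3 of 12, exact permutation p = 0.0440, adjusted p = 0.414). Of these 15, the 8 marked in 1 library could not reach an unadjusted p under 0.05 with 3 mice against 12. The count of 2 of 15 therefore cannot be set against the share of all genes. No collagen passed after adjustment for HF.

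The microfibril chains Col6a1 (1000 bp, percentile 40.0), Col6a2 (1400 bp, percentile 19.9) and Col6a3 (1200 bp, percentile 36.8) were marked in HF_1 alone. The transmembrane collagen Col13a1 (1800 bp, percentile 5.43) and the cartilage fibril chain Col11a2 (2400 bp, percentile 5.95) were marked in HF_3 alone, the latter 880 bp from the start of a noncoding transcript. Those marked in exactly 1 library were 8 collagens, of which 5 were marked in HF_1. Col26a1 was marked in CR_2 (2400 bp, percentile 50.4) and CR_3 (2600 bp, percentile 67.9), both at the start of a transcript with a retained intron and not at a coding start.

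Against SD, a collagen was counted as gained where at least 2 of 3 mice of a diet and no SD mouse had an island, and as lost in the reverse case. CR gained Col26a1 (1 of 44, 2.27%), beside 1.79% of all protein-coding genes. HF gained Col14a1 (1 of 44, 2.27%), beside 4.69% of all, and Col14a1 also met a rule of 3 of 3 mice against none, beside 1.82% of all. Under that rule CR gained 0 collagens, beside 0.313% of all, and YD lost 0, beside 3.5%. YD and RD gained 0 and lost 0, beside 0.0368% of all protein-coding genes gained and 9.46% lost for YD, and 0.221% gained and 3.92% lost for RD. CR and HF also lost 0 collagens, beside 0.336% and 0.0735% of all genes, and RD against YD gained and lost 0, beside 3.81% and 0.244%. Only Col18a1 was marked in at least 2 SD mice or at least 2 YD mice, so no other collagen could be counted as lost. The 0 losses therefore say little of the collagens. With 3 mice against 3 the exact two-sided p cannot go under 0.1, so gains and losses are counts without a test. Without SD_2 the collagens gained were 4 for CR and 4 for HF, with Col4a1, Col4a2 and Col27a1 joining in both, and without CR_2 or CR_3 CR gained 0. Leaving out an SD mouse eases the rule for every gene. Gains over all protein-coding genes were not counted in these fits, so the counts cannot be called particular to collagens.

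Genes that act on or signal to the collagens were written down as 5 lists. Genes that hydroxylate, fold and export collagen (18 genes) were marked in 51.1% of gene and library pairs and the TGF-beta axis, which drives collagen synthesis (9 genes), in 61.5%. Receptors (9 genes) were marked in 22.2%, breakdown enzymes and their inhibitors (9 genes) in 14.1% and maturation and crosslinking enzymes (13 genes) in 10.3%, beside 7.88% for the collagens. By diet the processing list was marked in 68.5% of pairs on HF, 53.7% on CR, 51.9% on SD, 46.3% on RD and 35.2% on YD. The TGF-beta list was marked in 92.6%, 70.4%, 59.3%, 59.3% and 25.9%, in the same order. All protein-coding genes stood in that order too, with 51.2% on HF, 43.4% on CR, 39.6% on SD, 31.2% on RD and 22.8% on YD. Marked in all 3 HF mice and no SD mouse were Plod2, a lysyl hydroxylase, also marked in 1 CR mouse, and Tgfb3, a TGF-beta ligand marked in HF alone. Smad2, a signal carrier of the receptors, was marked in 3 of 3 CR and 0 of 3 SD mice, but also in 2 HF mice and 1 RD mouse. The receptor gene Tgfbr2 was marked in 0 of 3 YD and 3 of 3 SD mice, and in 3 CR, 3 HF and 2 RD mice. Of all protein-coding genes, 1.82% were gained on HF, 0.313% gained on CR and 3.5% lost on YD under this rule. CR on its own was not tested over mice. The tests over mice for Plod2 (HF, adjusted p = 0.388), Tgfb3 (HF, adjusted p = 0.260) and Tgfbr2 (corn, adjusted p = 0.0892), by exact permutation, did not pass.

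Of the 5 genes of these lists that were marked in all libraries, 3 passed a test of corn against the other diets by width or score, all lower on corn, and Plod3 and Mia3 did not. Apob, of the hepatocyte markers, also passed by width (-0.52, exact permutation adjusted p = 0.0295). P4hb, a subunit of prolyl 4-hydroxylase, differed by -1.54 in log2 width (exact permutation adjusted p = 0.0230) and by -14.7 percentile points in score (adjusted p = 0.0196). Sec23a, of the coat that carries procollagen out of the endoplasmic reticulum, differed by -1.03 in log2 width (exact permutation adjusted p = 0.0248) and by -33.9 points in score (adjusted p = 0.0391). Smad7, an inhibitor of TGF-beta signalling, differed by -12.0 points in score (exact permutation adjusted p = 0.0196), and its log2 width difference of -0.74 did not pass (adjusted p = 0.122). Without YD_3 its score difference was -0.84 points (exact permutation adjusted p = 0.0466). The width calls of P4hb and Sec23a were lost without YD_2 (exact permutation adjusted p = 0.0515 and 0.0551) and without YD_3 (adjusted p = 0.0640 and 0.0695). That of Apob was kept in 10 of the 15 fits without 1 mouse. The score call of Sec23a was kept in 4 of the 15 such fits (exact permutation adjusted p up to 0.0814) and its difference within the PATChIP form was +0.97 points. As given above, 23.6% of all genes passed the width test and 17.3% the score test.

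The sequence windows of the collagens were poorer in CpG than those of protein-coding genes as a whole. RefSeq windows were found for 35 of 44 collagens and 16433 protein-coding genes, and the gene's window of highest CpG ratio was taken, so that Col18a1 counted by its upstream window. The median ratio was 0.471 for collagens and 0.634 for all protein-coding genes, and it was 0.561 for the 13 collagens marked in any library and 0.399 for the 22 marked in none. Protein-coding genes marked in no library had 0.256 and those marked in all 15 had 0.834. The unmarked collagens thus lay above the unmarked protein-coding genes. Among windows with a ratio over 0.75, 4 of 6 collagens and 88.8% of protein-coding genes were marked in at least 1 library. Between 0.5 and 0.75 the figures were 5 of 10 and 73.9%, between 0.25 and 0.5 they were 1 of 11 and 40.6%, and from 0 to 0.25 they were 3 of 8 and 23.6%. Searched on both strands, TATAAA was in 14.3% of collagen windows and 12.6% of all, CCAAT in 37.1% and 38.2%, and GGGCGG in 62.9% and 49.8%. GGGCGG holds 1 CpG, so its count is not independent of CpG content, and a match is a description of letters in the window.

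**Figure D5:**
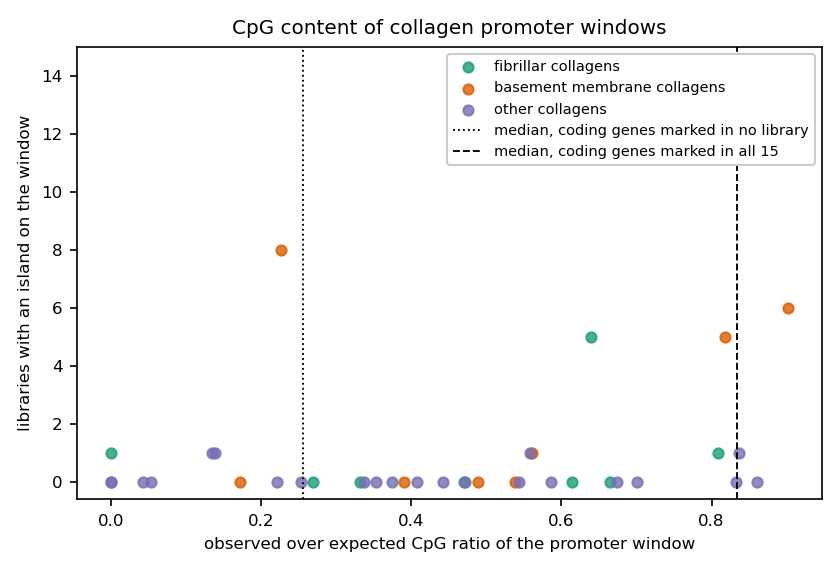
Libraries with an island on the RefSeq window (vertical axis) against its observed over expected CpG ratio (horizontal axis) for the windows of 35 collagens, coloured by class. The dotted and dashed lines are the medians of protein-coding genes marked in no library (0.256) and in all 15 (0.834), and the internal Col18a1 window stands highest, overlapped in 8 libraries at a ratio of 0.227.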

How the data were processed

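The data are PAT-ChIP-seq profiles of H3K4me3 from 15 livers, 1 library per mouse. Single-end reads (50 bp) were mapped to mm10 with BWA by the authors, who used SAMtools to drop unmapped and duplicate reads, those with MAPQ below 1 and those not on chromosomes 1 to 19 or X. Islands were called by the authors in each library with SICER2 (fragment 200 bp, window 200 bp, gap 400 bp, FDR under 0.05). Versions are not given in the sources used here. The authors deposited 15 lists of chromosome, start, end and score. The score adds up, over enriched windows, how improbable their reads were under a Poisson background (minus natural logs). It is not scaled between libraries, so only its rank within a list was used.

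From the lists, the presence of an island within 1 kb of any GENCODE M21 TSS, the width of the widest and the score percentile of the best such island were computed per gene with Python 3.11.15, numpy 2.4.6, pandas 2.3.3 and scipy 1.17.1, and plotted with matplotlib 3.10.9. The reads behind each list (5589269 to 15449854) were recovered from the score steps of islands that span 1 window, at an effective genome fraction of 0.74, and lay within 0.00046 of whole numbers. Counts per island were not analysed here, so errors are standard deviations between mice and no counting interval is printed.

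Groups came from the sample labels, and replicates are separate mice. Corn diets (YD and RD, 6 mice) were compared with the other 9 mice, and HF with the other 12, by two-sided exact permutation tests per gene over all 5005 or 455 arrangements. The smallest p was 0.0001998 or 0.0022. Adjustment was by the Benjamini-Hochberg method over all protein-coding genes with islands in 1 to 14 libraries (presence, 10985) or in all 15 (width and score, 2059), with a threshold of 0.05. Neither the 6 litters nor any extraction batch is tied to samples in the labels.

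Members and lists were chosen with earlier results of these data known. The genes named with values were those marked in all 15 libraries, those gained or lost in any diet comparison, those with an unadjusted p under 0.05 and the known liver collagens. The remaining marked members, Col4a5, Col11a2 and Col13a1, were named after their values were seen. Pathway genes were named where 3 of 3 mice of a diet and 0 of 3 SD mice were marked, or the reverse, or where an adjusted p passed. Promoter windows were those of RefSeq on GRCm38.p6, matched by symbol for 35 of 44 collagens. There was no entry for Col12a1, Col14a1, Col1a1, Col22a1, Col26a1, Col2a1, Col4a3, Col5a2 and Col9a3. The calculations were tested on simulated data.

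Alternatives were TSSs within 3 kb, inside the island or of coding transcripts only, the 7825 highest-scoring islands of each list, islands of at least 600 bp or at least the median score, 3 of 3 mice, other width and score scales, name forms, the replicate block and leaving out each mouse.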

Additional observations from a re-analysis of the deposited data

Results flagged for a closer look

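Of the collagen counts and Col18a1 values, 3 stood apart from their group in a check of whether the highest or lowest library lies far from its nearest neighbour for the group's range. For normally distributed values chance alone flags about 1 in 20 groups, a rate that need not hold for tied counts or for percentiles near their upper limit. Where all other libraries of a group have the same count, any different count is flagged. YD_1 had 3 collagens marked, while each of the other 5 corn libraries had 1, and it also had the most recovered reads (15449854) and the fewest islands (7825). RD_3 had Col18a1 at percentile 76.5, and the next lowest corn library at 92.5. CR_1 had Col18a1 at percentile 83.6, the next lowest library on SD, CR or HF at 94.4, and the fewest recovered reads (5589269). The part of depth in these values was not tested.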

How the results depend on the processing

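With the TSS inside the island the mean number of collagens marked was 1.33 for SD and 0 for RD, HF gained 3 collagens against SD (Col4a1, Col4a2 and Col14a1) and RD lost 1 (Col18a1). TSSs within 3 kb gave 1.33 for RD. With the 7825 highest-scoring islands of each list the means were 1 for SD and 3 for HF, and HF gained 2 (Col4a1 and Col4a2). Islands at or above the median score gave 1.33 for SD, 3 for HF, 2 gained for CR (Col27a1 and Col26a1) and 2 for HF (Col4a1 and Col4a2), so Col14a1 was not marked under either score limit. CR gained 0 with TSSs of coding transcripts or with 3 of 3 mice. Apart from the rule of 3 of 3 mice, gains and losses over all protein-coding genes were not counted under these settings or with mice left out. The ChIP form of name, a choice made after seeing the data, left 1 HF library with 12 collagens marked. With the width percentile 1 collagen passed for corn, Col18a1, at -20.8 points (exact permutation adjusted p = 0.0331). Under this setting 439 of the 2059 genes tested passed, so the call is not particular to Col18a1.

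Differences turned at Col27a1 for HF with the highest-scoring islands (-0.167 in the share of mice) and at Col18a1 by score for corn within the PATChIP form (+1.57 points), as at Sec23a (+0.97 points). Leaving out each mouse in turn gave 0 to 4 collagens gained or lost for CR, 1 to 4 for HF and 0 for YD, RD and RD against YD. It gave 0 to 1 collagens passing for corn by width and 0 to 1 by score, each time Col18a1, without YD_1 and without CR_1. The cause of these moves was not tested.

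Mice that share a replicate number across diets were separate animals, and their deviations had a mean correlation of 0.00149 over 30 pairs, so the numbers did not pair them. With the replicate block 0 collagens passed, and Col18a1 width for corn gave an exact permutation adjusted p of 0.0951. Over all genes the block left 0 presence calls for corn against 50, 331 width calls against 486 and 295 score calls against 357. Presence and rank say nothing of signal height, and 3 mice per diet limit every comparison.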

Other observations

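Islands inside collagen genes but more than 1 kb from any of their TSSs numbered 58 in 15 genes, of which 11 genes had no island at a TSS. They were most frequent in CR_3 (10 islands), RD_2 (10) and HF_1 (8), and the YD libraries had 0 each. The full lists held 33752 islands in CR_3, 32131 in RD_2 and 21280 in HF_1, and 7825, 9405 and 10906 in the YD libraries. Such islands were not counted over all protein-coding genes, so these counts cannot be called particular to collagens or to a diet. The genes concerned in most libraries were Col11a1 (7 libraries), Col23a1 (6), Col19a1 (5) and Col5a2 (5), chosen after their values were seen. In Col23a1, which encodes a transmembrane collagen, the islands of HF_1 (2600 bp, percentile 73.5) and HF_3 (3800 bp, percentile 77.2) overlapped each other 8.97 and 7.77 kb from the nearest TSS. Those of SD_1, CR_2, HF_2 and RD_2 lay 137 to 138 kb from it, at percentiles from 12.4 to 53.6. In Col9a1, a chain of cartilage, the islands of SD_1, CR_3 and RD_2 overlapped 10.2, 11.4 and 9.98 kb from the nearest TSS, at percentiles 43.9, 54.5 and 83.3, and in Col28a1 those of SD_1 (percentile 43.9) and RD_2 (percentile 84.3) overlapped 36.5 and 34.3 kb from it. At Col11a1 the islands were scattered over the gene, with percentiles from 1.20 to 57.4.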
